A study of Mus musculus with 21 samples.

Results

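Macrophages sorted 72 h after zymosan were set against monocyte/macrophages sorted 18 h after it, with 3 arrays in each group, 6 of the 21 arrays of the series. The 6 arrays were chosen by their labelled source alone, and every gene with a probe set of a single symbol entered, 18194 in all, of which 12169 passed a filter on low signal and were tested. All mice were female C57BL/6 of 7 to 8 weeks, and the labels name no genetic change in any group. Both groups came from the peritoneal cavity of mice that had received 20000000 particles of zymosan, a yeast cell wall preparation, by injection into that cavity. The cells of 72 h were sorted as F4/80+ CD11b+, and those of 18 h as Ly-6G- with Ly-6B positive or low. The gates therefore differ as well as the times, and time and gate cannot be told apart in these arrays. Further groups of 3 arrays each served to place the levels, namely Ly-6B- macrophages high in F4/80 and Ly-6B+ macrophages medium to high in F4/80 at 168 h, Ly-6B+ Ly-6G- monocytes at 4 h, and, from naive mice, resident macrophages of the peritoneum with high F4/80 and CD11b and Ly-6B+ Ly-6G- bone marrow monocytes. The labels call the arrays of a group biological replicates and do not give the number of mice behind each, so that p-values measure the spread between these samples.

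Zymosan is recognised by macrophages through dectin-1 and Toll-like receptors and sets off a self-limiting peritonitis. Many resident macrophages vanish from the lavage within hours, neutrophils arrive first and monocytes follow through CCR2, and as the inflammation resolves the monocytes differentiate while macrophages in the cavity divide and restore their number. Resident peritoneal macrophages depend on the transcription factor GATA6 and on retinoic acid, clear apoptotic cells through the phosphatidylserine receptor Tim4, and carry complement receptors, coagulation factors and lipid mediator enzymes. Monocytes newly arrived in a tissue carry versican, interleukin-1 beta and the chemokine receptor CCR2.

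The values are MAS5 signals, a linear intensity that the authors scaled to the same trimmed mean in every array, and each gene is given by its brightest probe set. Levels are therefore compared between samples and not between genes. Median signal was 74.4 to 88.9 in the 72 h arrays, against 69.5 to 79.4 in the 18 h arrays, and the Gapdh 3'/5' ratio, a measure of RNA integrity and amplification length, was 1.98 to 2.46 at 72 h, against 1.64 to 2.12 at 18 h. Arrays correlated within a group at a mean r of 0.970 at 72 h and 0.978 at 18 h across genes, which are not independent replicates, and the lowest r within the 72 h group, 0.965, was between replicates 2 and 3.

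The 72 h array of replicate 2 stood apart. In it, 324 genes had at least 2 times the signal of both other 72 h arrays, against 14 genes in replicate 1 and 84 in replicate 3. Among them were transcripts of B cells, mast cells, and T and NK cells. Ms4a1, which encodes CD20 of B cells, had signals of 267, 5384 and 289 in the 72 h arrays, against 2185, 1968 and 1228 in the 18 h arrays. Cpa3, the carboxypeptidase of mast cells, had 140.0, 3408 and 131 at 72 h, against 352, 329 and 283 at 18 h. Both were high in replicate 2 alone among the 72 h arrays, and the groups overlapped. The summed signal of the 11 genes of the B cell list was 1225, 14725 and 1502 at 72 h, against 7221, 7241 and 5839 at 18 h. For the 8 mast cell genes the sum was 3061, 9697 and 3693 at 72 h, against 861, 994 and 860.4 at 18 h, and for the 11 T and NK cell genes it was 439, 2237 and 716 at 72 h, against 1131, 1162 and 1298 at 18 h. Replicate 2 was thus the highest array of the 6 in all 3 sums, while the 18 h arrays exceeded the other 72 h arrays in the B cell and the T and NK cell sums and lay below every 72 h array in the mast cell sum. In 72 h replicates 1 and 3 the mast cell sum was mostly Hdc, the only mast cell gene called, which is given below. In a sorted population measured in bulk, fewer cells of a type and less RNA per cell cannot be told apart. List counts that this array moved by over 1.5 times are given below with and without it.

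**Figure D1:**
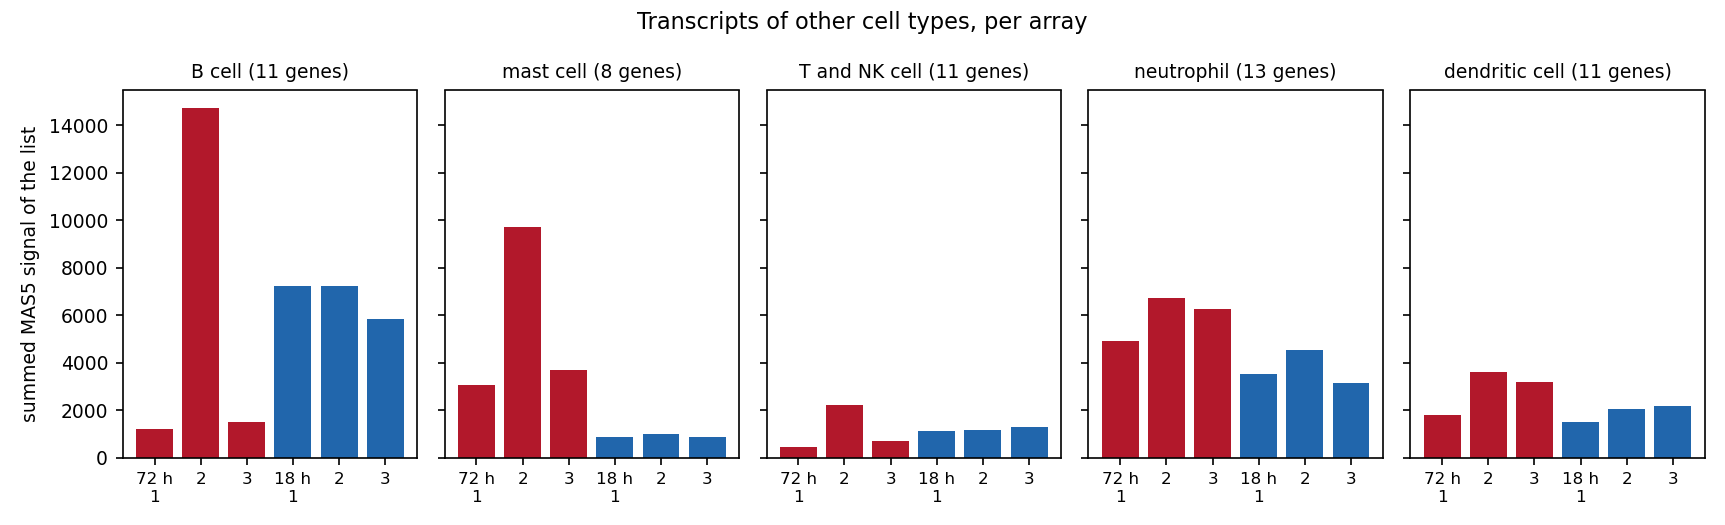
Summed MAS5 signal (linear axis from 0) of 5 lists of genes of other cell types, one bar per array, with the 3 arrays of 72 h in red on the left of each panel and the 3 arrays of 18 h in blue on the right. The bar of 72 h replicate 2 is the highest for B cells (14725), mast cells (9697) and T and NK cells (2237). The other red mast cell bars are mostly the signal of Hdc.

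Between 72 h and 18 h, the macrophages differed in the genes of the resident programme, of cell division and of the arriving monocyte. In limma's moderated test with Benjamini-Hochberg adjustment, 1099 of 12169 genes were higher at 72 h (9.03%) and 421 were lower (3.46%), 1520 (12.5%) in all, where a call needs an adjusted p below 0.05 and a change of at least 1 in either direction on the log2(signal + 15) scale. Changes of at least 4-fold were found in 416 genes that were higher and 95 that were lower, and changes of at least 16-fold in 40 that were higher and 4 that were lower. Increases outnumbered decreases at each of these sizes. The 3 arrays of 72 h and the 3 of 18 h did not overlap in 1089 of the 1099 higher genes and in 406 of the 421 lower ones, against 41% of all genes tested. The median log2 change over all genes was 0.027. The median array signal was 0.117 higher on the log2 scale at 72 h, and when all arrays were brought to a common median the counts became 969 higher and 536 lower, with a median log2 change over all genes of -0.090. In genes given array by array below, the 2 groups do not overlap unless that is said.

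**Figure D2:**
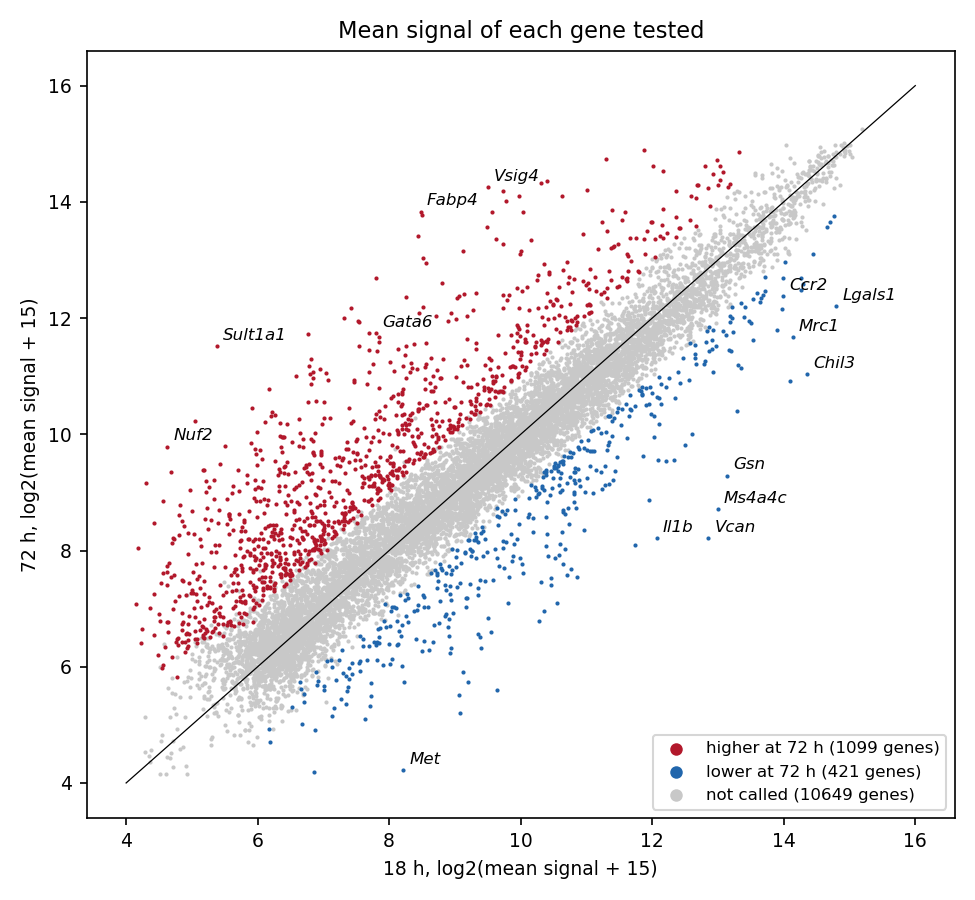
Mean signal of each of the 12169 genes at 72 h (vertical) and at 18 h (horizontal), both as log2(mean signal + 15), with 1099 genes called higher in red, 421 called lower in blue and the others in grey. The line marks equal signal, and Sult1a1, Nuf2, Fabp4 and Vsig4 lie farthest above it among the genes written out.

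The 5 genes taken as markers of the comparison lay apart in every array. Timd4, the Tim4 receptor with which resident macrophages bind phosphatidylserine on dying cells, had signals of 12640.5, 12561 and 16539.5 in the 72 h arrays, against 444, 365 and 232 in the 18 h arrays. Fabp4, a carrier of fatty acids in macrophages and adipocytes, had 13108, 12471 and 18072 at 72 h, against 336, 331 and 357 at 18 h. Every 72 h array thus exceeded every 18 h array many times over, and the log2 changes were 5.30 (SE 0.34, limma adjusted p = 3.51e-10) for Timd4 and 5.33 (SE 0.26, limma adjusted p = 7.52e-12) for Fabp4. Vcan, the matrix proteoglycan versican of classical monocytes, had signals of 361, 270.2 and 216 in the 72 h arrays, against 8430.3, 7638 and 6004 in the 18 h arrays. Il1b, the cytokine interleukin-1 beta, had 206, 517 and 124 at 72 h, against 3333, 5882 and 3624 at 18 h, and Gsn, which severs actin filaments, had 681, 856 and 294 at 72 h, against 9833, 7714 and 9552 at 18 h. No 72 h array reached the lowest 18 h array for any of the 3, and their log2 changes were -4.65 (SE 0.23), -4.03 (SE 0.42) and -3.97 (SE 0.33), with limma adjusted p = 8.15e-12, 2.83e-07 and 1.11e-08. These 5 had been proposed with results of these arrays known, so that their directions are a description.

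The transcripts of F4/80 and CD11b, the antigens on which the 72 h cells were sorted, were looked at in both groups, and those of Ly-6B and Ly-6G, on which the 18 h cells were sorted, were not. Adgre1, which encodes F4/80, had signals of 29794, 33098 and 34427 in the 72 h arrays, against 16488, 17052 and 16892 in the 18 h arrays, and Itgam, which encodes CD11b, had 3583, 3980.5 and 5297 at 72 h, against 2438, 3117 and 1956 at 18 h. Both were abundant in both groups, and their log2 differences of 0.95 and 0.78 stayed below the fold needed for a call, with limma adjusted p = 1.72e-06 and 0.00539. Both groups thus carried the transcripts of these antigens, whose protein the arrays do not measure. The F4/80 transcript was higher in each 72 h array than in any 18 h array. The log2 difference of Adgre1 was 1.01 without 72 h replicate 1, and it was then called.

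**Figure D3:**
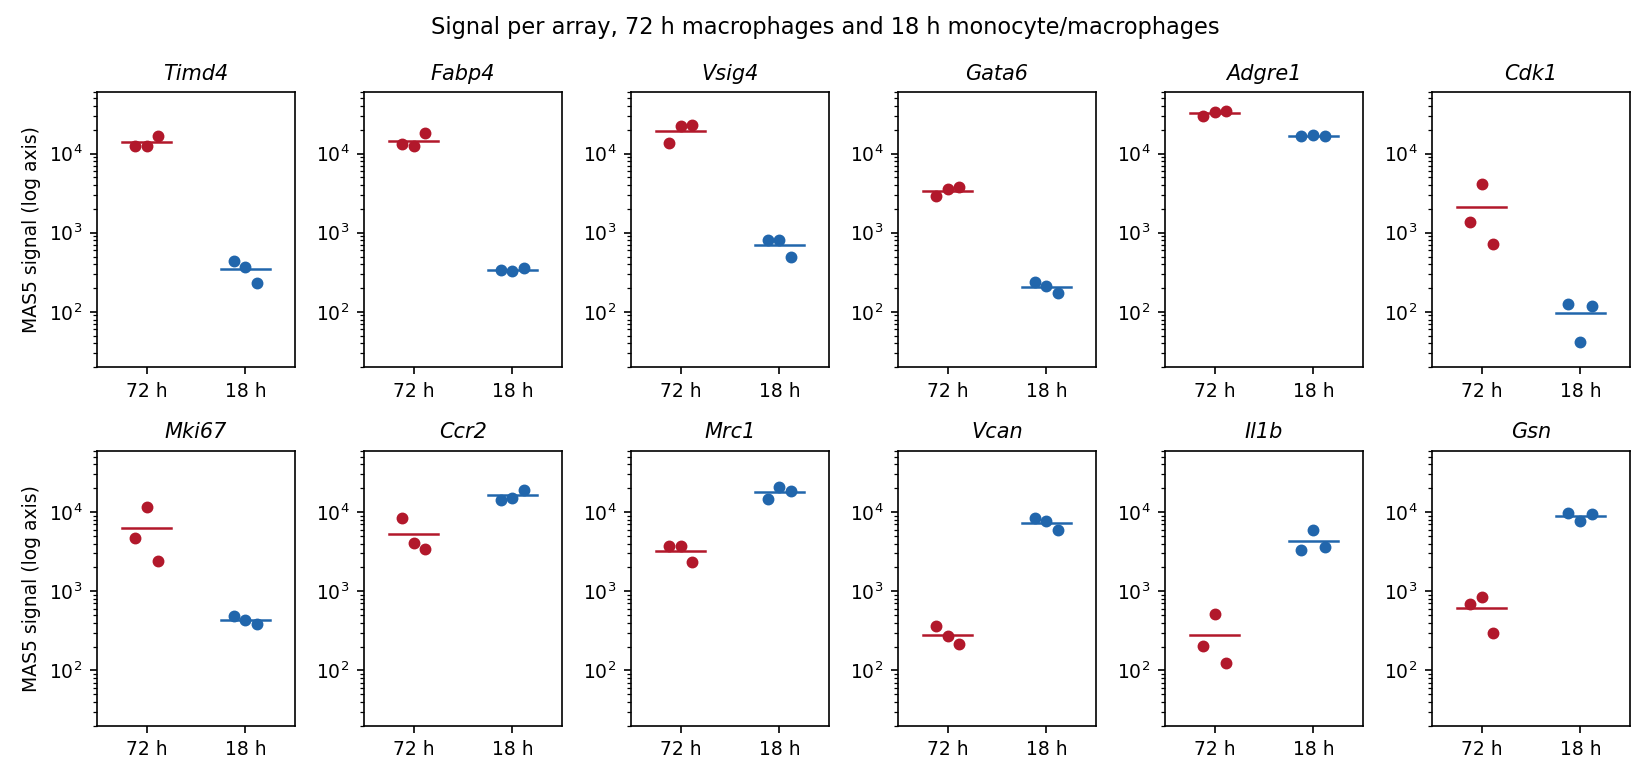
MAS5 signal of 12 genes on a log axis, each point one array and each line the mean of 3, with 72 h in red on the left and 18 h in blue on the right. Timd4, Fabp4, Vsig4, Gata6, Adgre1, Cdk1 and Mki67 have all 72 h points above the 18 h points, and Ccr2, Mrc1, Vcan, Il1b and Gsn have all of them below.

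Of the 33 lists of processes, that of resident peritoneal macrophages had the largest share of genes higher at 72 h. Of 24 measured, 21 were higher at 72 h and the other 3 were not called, and the median log2 change was 3.95, against 0.027 over all genes. The lists were chosen with earlier results of these data known, so that this order of lists is a description. Gata6, the transcription factor that defines the peritoneal macrophage, had signals of 2873, 3599.8 and 3749 in the 72 h arrays, against 239, 214 and 171 in the 18 h arrays (log2 change 3.94, limma adjusted p = 1.4e-11). Vsig4, a complement receptor of the immunoglobulin family, had 13701, 22064 and 22941 at 72 h, against 811, 817 and 499 at 18 h, and Tgfb2, a ligand of the transforming growth factor beta family, had 11706, 8021 and 12775 at 72 h, against 370.5, 339 and 281 at 18 h. The groups did not overlap for any of these 3 genes, and replicate 1 was the lowest 72 h array for Gata6 and Vsig4. Garnl3 was higher by 4.89 and Ltbp1, which holds latent transforming growth factor beta in the matrix, by 4.54 on the log2 scale. The 3 members not called were Saa3, Cd93 and F10, with log2 differences of 0.31, 0.44 and 0.82.

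Relative to naive resident macrophages, the resident list stood far higher at 72 h than at 18 h. The median over the 24 genes was 77.2%, 86.0% and 90.9% of the resident mean in the 3 arrays of 72 h, against 5.85%, 5.39% and 4.30% in those of 18 h. Ly-6B- macrophages of 168 h stood at 96.1% and Ly-6B+ macrophages of 168 h at 45.9%, while monocytes of 4 h stood at 2.25% and bone marrow monocytes at 0.500%. The 72 h arrays thus lay between the 2 populations of 168 h on this list. Timd4 itself stood at 67.8%, 67.4% and 88.8% of its resident mean at 72 h, against 2.38%, 1.96% and 1.24% at 18 h.

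**Figure D4:**
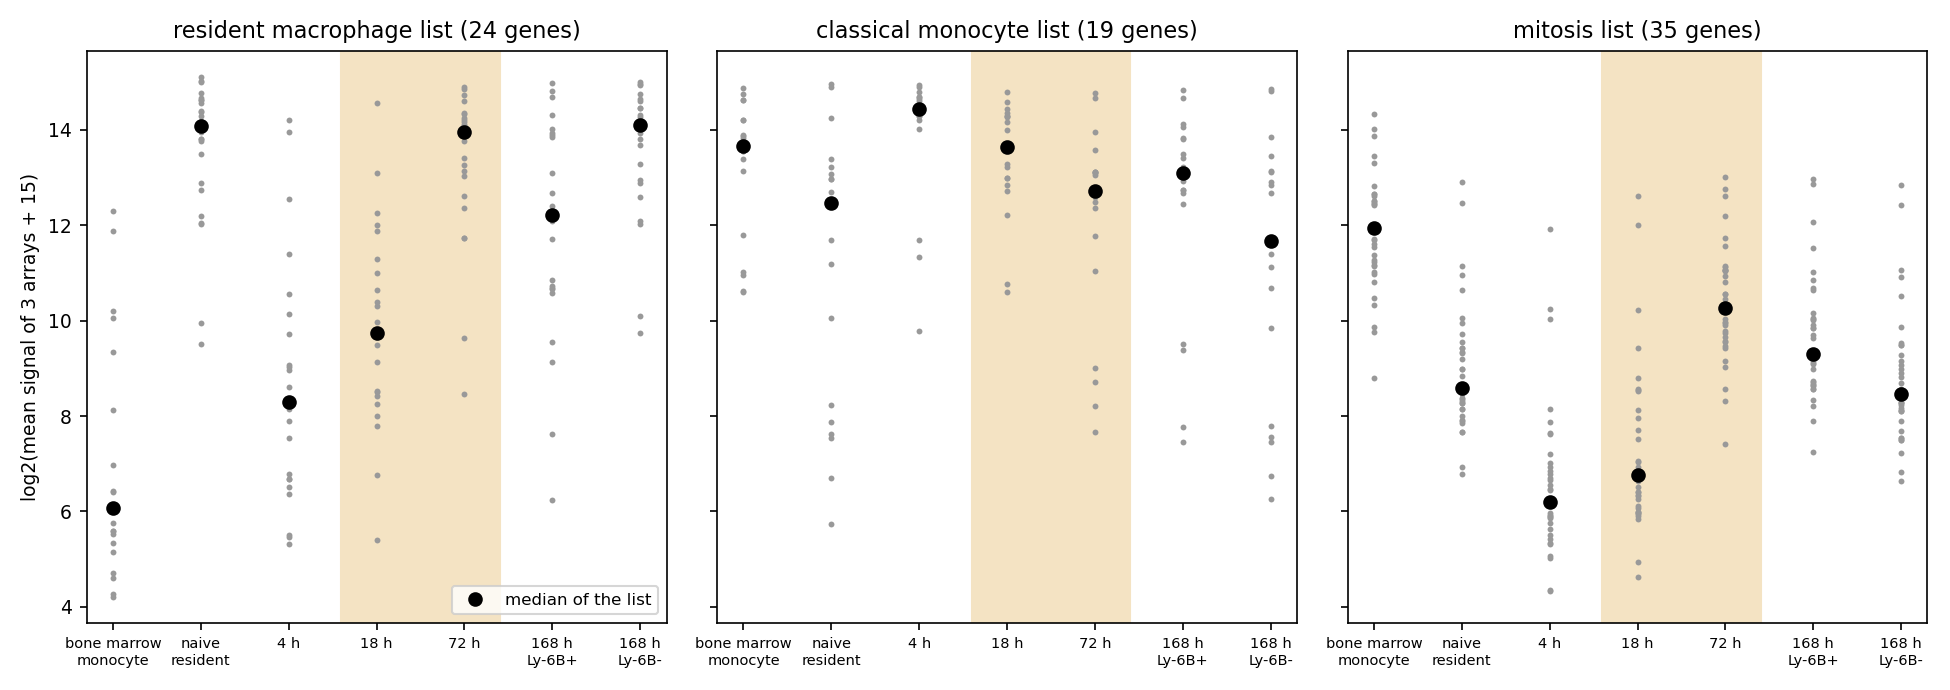
Mean signal of each gene of 3 lists in the 7 groups, as log2(mean signal of 3 arrays + 15), with grey points for genes and black points for the median of the list, and the 18 h and 72 h groups shaded. The medians of the resident macrophage and mitosis lists are higher at 72 h than at 18 h, and that of the classical monocyte list is lower.

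Genes of cell division came next. Of 35 mitosis genes tested, 30 were higher at 72 h and the other 5 were not called, with a median log2 change of 3.32. Of 33 DNA replication genes, 24 were higher and the other 9 were not called, with a median of 1.45. Nuf2, a subunit of the kinetochore complex that holds microtubules, had signals of 734, 1451 and 422 in the 72 h arrays, against 6.74, 6.78 and 15.3 in the 18 h arrays, and a log2 change of 5.01, which ran from 3.58 to 6.27 over the alternatives, and its 18 h signals lay near or below the pseudocount of 15. Cdk1, the kinase that drives entry into mitosis, had 1378, 4164 and 717 at 72 h, against 127, 42.0 and 120.2 at 18 h (log2 change 3.98, limma adjusted p = 1.72e-05), and Mki67, which encodes the Ki-67 antigen of cycling cells, had 4757, 11519 and 2411 at 72 h, against 480.0, 434 and 382 at 18 h. Every 72 h array was above every 18 h array for these genes, but the 72 h arrays differed among themselves, with replicate 2 the highest and replicate 3 the lowest.

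The same order of the 72 h arrays was seen in the median of both lists. The median mitosis gene stood at 21.7%, 63.7% and 13.4% of its bone marrow mean in the 3 arrays of 72 h, against 2.32%, 1.95% and 2.17% in those of 18 h. Naive resident macrophages, Ly-6B- macrophages of 168 h and Ly-6B+ macrophages of 168 h stood at 11.2%, 9.16% and 18.8%, and monocytes of 4 h at 1.43%. For the replication list the values were 40.4%, 64.7% and 29.1% at 72 h, against 12.7%, 15.5% and 14.3% at 18 h. Replicate 2 was also the array with the highest B cell, mast cell and T and NK cell transcripts, and the part of these in the cell cycle signal was not tested. Without replicate 2, 29 mitosis genes and 20 replication genes were higher, the log2 change of Cdk1 was 3.29, against 3.98 with it, and that of Mki67 was 2.93, against 3.52 with it.

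Among the other members, Ube2c, the ubiquitin-conjugating enzyme of the anaphase-promoting complex, was higher by 4.33 and Ccnb2, cyclin B2, by 4.03 on the log2 scale. In the replication list the largest changes were in Tk1, thymidine kinase, at 3.87, Rrm2, the small subunit of ribonucleotide reductase, at 3.43, Pole, the catalytic subunit of DNA polymerase epsilon, at 2.61, and Lig1, DNA ligase 1, at 2.38. Tk1 had signals of 679, 2396 and 717 in the 72 h arrays, against 55.9, 50.6 and 68.8 in the 18 h arrays, and Rrm2 had 2074, 4861 and 1362 at 72 h, against 229.8, 173 and 227 at 18 h. Both again peaked in 72 h replicate 2. The mitosis genes not called were Pttg1, Foxm1, Mybl2, Espl1 and Incenp, with log2 differences of 0.16 to 0.98. Without 72 h replicate 2 the log2 changes of Ube2c, Ccnb2 and Tk1 were 3.55, 3.44 and 3.29, and without 18 h replicate 2 that of Ube2c was 3.66.

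The regulators of the cycle split. Of 26 tested, 8 were higher and 3 lower, with a median log2 change of 0.31. E2f7 and E2f8, the atypical repressors of the E2F family, were higher by 3.15 and 3.09, and Ccne2, cyclin E2 of the passage into S phase, by 2.88. Cdkn2b, the inhibitor p15 of the cyclin D kinases, was higher too, with signals of 431, 596 and 884 in the 72 h arrays, against 83.8, 32.9 and 81.7 in the 18 h arrays. Ccnd2, cyclin D2, had 382, 838 and 253 at 72 h, against 1454, 1082 and 1162 at 18 h, and fell by 1.46, and Cdkn1a, the inhibitor p21, fell by 1.29. E2f2 fell by 1.27, a call lost in 3 of 22 alternative settings, among them those without 72 h replicate 3 (-0.82) or 18 h replicate 1 (-1.12). Inhibitors and promoters of the cycle thus stood on both sides.

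Most genes of these lists were higher together, and their promoters were searched for known cell cycle elements. Those shown are of the most changed members that hold the element, so that members that changed more, among them Nuf2 and Tk1, are not shown. Mitotic genes are commonly controlled through the cell cycle homology element, searched here as TTTGAA, and replication genes through E2F sites, searched here as TTTNGCGC. Each was searched on both strands of the 300 bases that RefSeq's GRCm38.p6 places from 250 before to 50 after the start, and 29 of 35 mitosis genes and 29 of 33 replication genes had such a promoter, some more than 1, which gave 30 and 34 promoters. The first 3 sequences below are mitosis genes and the last 2 are replication genes, each written 5′ to 3′ along its own gene's strand. Capitals mark every match of the element searched for that gene's own list, TTTGAA for mitosis and TTTNGCGC for replication. Matches of the other motifs were not marked.
Ube2c chr2:164769679-164769978 (+): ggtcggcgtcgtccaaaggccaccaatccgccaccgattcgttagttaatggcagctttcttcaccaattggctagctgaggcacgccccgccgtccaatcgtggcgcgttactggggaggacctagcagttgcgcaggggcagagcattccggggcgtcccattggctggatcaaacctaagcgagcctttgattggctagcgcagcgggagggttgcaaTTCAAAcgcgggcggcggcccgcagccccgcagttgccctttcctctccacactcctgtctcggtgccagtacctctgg
Ccnb2 chr9:70421505-70421804 (-): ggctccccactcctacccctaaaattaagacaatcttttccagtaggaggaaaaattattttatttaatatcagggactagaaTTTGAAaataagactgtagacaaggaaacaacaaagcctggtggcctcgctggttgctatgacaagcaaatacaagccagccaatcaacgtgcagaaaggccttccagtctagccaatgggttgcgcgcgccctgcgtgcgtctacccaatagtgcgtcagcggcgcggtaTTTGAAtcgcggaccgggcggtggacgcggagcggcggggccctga
Cdk1 chr10:69352863-69353162 (-): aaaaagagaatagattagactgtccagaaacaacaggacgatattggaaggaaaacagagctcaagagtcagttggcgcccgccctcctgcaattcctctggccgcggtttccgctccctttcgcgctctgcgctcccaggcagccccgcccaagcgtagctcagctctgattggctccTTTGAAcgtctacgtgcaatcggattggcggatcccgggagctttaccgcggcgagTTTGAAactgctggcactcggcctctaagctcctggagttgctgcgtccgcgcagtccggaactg
Lig1 chr7:13278576-13278875 (+): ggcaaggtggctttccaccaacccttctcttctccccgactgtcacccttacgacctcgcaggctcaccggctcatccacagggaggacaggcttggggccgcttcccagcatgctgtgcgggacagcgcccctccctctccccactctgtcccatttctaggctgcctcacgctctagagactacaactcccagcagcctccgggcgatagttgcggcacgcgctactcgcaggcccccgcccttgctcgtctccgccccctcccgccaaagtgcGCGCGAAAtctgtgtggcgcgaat
Mcm7 chr5:138171834-138172133 (-): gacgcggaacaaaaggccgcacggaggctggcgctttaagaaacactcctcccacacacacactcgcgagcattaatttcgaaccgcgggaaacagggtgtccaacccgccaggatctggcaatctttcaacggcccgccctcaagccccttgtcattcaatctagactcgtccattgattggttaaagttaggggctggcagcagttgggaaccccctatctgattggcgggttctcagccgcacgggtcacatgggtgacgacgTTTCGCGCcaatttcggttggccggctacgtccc
Ube2c holds 1 match of TTTGAA, 29 bases before the start, and Cdk1 holds 2, at 71 and 15 bases before it. TTTGAA stood in 20 of 30 promoters of the mitosis list (66.7%), against 5878 of 32851 promoters in all (17.9%). TTTNGCGC stood in 10 of 34 promoters of the replication list (29.4%), against 452 of all (1.38%), and the CCAAT box stood in 21 of 30 mitosis promoters (70.0%), against 12289 of all (37.4%). Mcm7, a subunit of the replicative helicase, was higher by 2.30 on the log2 scale. The motifs were counted separately, and a match describes only the letters of the window.

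Genes of classical monocytes were lower in 10 of 19 tested and the other 9 were not called, with a median log2 change of -1.32. After Vcan, the largest decreases were in Ms4a4c, a membrane protein of the MS4A family, with signals of 513, 472 and 232 in the 72 h arrays, against 8191, 7372 and 8916 in the 18 h arrays, and in Chil3, the chitinase-like protein Ym1, with 2469.7, 1605 and 2180.0 at 72 h, against 20934, 22226 and 19368 at 18 h. Cx3cr1, the fractalkine receptor, had 228, 182 and 157 at 72 h, against 1537, 1763 and 1889.8 at 18 h. Ccr2, the receptor through which monocytes leave the bone marrow and enter tissue, had 8365, 4095 and 3406 at 72 h, against 14390.0, 15272 and 19098 at 18 h, and fell by 1.72 (SE 0.34, limma adjusted p = 0.000469). The groups did not overlap for Ccr2, and its mean of 5288 ± 2687 at 72 h stood above the 182 ± 118 of naive resident macrophages (SD, n = 3 each, log2 change 4.80, limma adjusted p = 2.43e-08). Replicate 1 was the highest 72 h array for Ccr2, and it was also the 72 h array that correlated best with the 18 h arrays, at r = 0.931 with 18 h replicate 1 across genes.

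As a share of the level at 4 h, the median classical monocyte gene stood at 36.4%, 26.6% and 34.1% in the arrays of 72 h, against 69.9%, 69.9% and 77.5% in those of 18 h. Bone marrow monocytes stood at 69.6%, Ly-6B+ macrophages of 168 h at 42.8%, naive resident macrophages at 22.1% and Ly-6B- macrophages of 168 h at 15.6%. The 72 h arrays thus lay between the Ly-6B+ macrophages of 168 h and the naive resident cells. Members that were not called included Fn1 (fibronectin) and Ifitm6, with log2 differences of -0.016 and -0.22. Part of the list stood on the other side, with Ms4a8a, Emilin2 and Clec4e at 0.88, 0.52 and 0.44, each above 0 at an unadjusted limma p below 0.05 and below the fold needed for a call, and 1 gene of the list was called higher without 18 h replicate 1.

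Inflammatory cytokine genes were lower in 6 of 19 tested and higher in 1 (median log2 change -0.18). Besides Il1b, Tnf, tumour necrosis factor, had signals of 178, 395 and 189 in the 72 h arrays, against 458, 1653 and 1844 in the 18 h arrays, and fell by 2.17. Il1rn, the antagonist of the interleukin-1 receptor, had 80.4, 161 and 139 at 72 h, against 456, 570.4 and 406 at 18 h, so that the cytokine and its antagonist were lower together. Il1r2, the decoy receptor of interleukin-1, fell by 1.29, a call lost in 14 of 22 alternatives, among them those without 72 h replicate 1 (-1.11), 72 h replicate 3 (-1.14), 18 h replicate 2 (-0.85) or 18 h replicate 3 (-1.33). Ebi3, a subunit shared by interleukins 27 and 35, was the one gene higher, by 1.04, and its call was lost in 7, among them those without 72 h replicate 3 (0.96) or 18 h replicate 2 (0.97). Il10 and Il6, which were looked up for their role in resolution and acute inflammation, had log2 differences of -0.092 and 0.086. Without 18 h replicate 2, 3 of the genes were lower, and the count higher was 2 without 72 h replicate 1 and 0 without 72 h replicate 3. Without 18 h replicate 1 the log2 change of Tnf was -2.80.

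Chemokine genes were lower in 6 of 21 and higher in 3 (median log2 change -0.20). Ccl12, Ccl7 and Ccl2, ligands of CCR2 that draw monocytes, were lower together with their receptor. Ccl12 had signals of 41.7, 44.1 and 6.82 in the 72 h arrays, against 289.9, 431 and 845 in the 18 h arrays, and Ccl2 had 670.0, 631 and 919 at 72 h, against 2291, 5173 and 5564 at 18 h. Pf4, platelet factor 4, had 28857, 29327 and 30899 at 72 h, against 11713, 9512 and 9286 at 18 h, and was higher by 1.55, and Cxcl16, a membrane-bound chemokine that also binds oxidised lipoprotein, was higher by 1.32. The call of Cxcl1, a neutrophil chemoattractant, at 1.09, was lost in 11 of 22 alternatives, among them those without 72 h replicate 1 (1.11), 72 h replicate 2 (1.17), 72 h replicate 3 (1.00) or 18 h replicate 1 (0.55). That of Ppbp, another platelet chemokine, at -2.05, was lost in 4, among them those without 72 h replicate 2 (-1.69), 18 h replicate 1 (-1.92) or 18 h replicate 2 (-1.93). The platelet transcripts Itga2b and Treml1 had 209 ± 34.5 at 72 h, against 140.3 ± 38.0 at 18 h, and 191 ± 85.5 at 72 h, against 175 ± 57.0 at 18 h (SD, n = 3 each). Without 18 h replicate 1 the log2 change of Ccl7 was -3.28, against -2.61 with it.

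Receptors for chemoattractants were lower in 5 of 17 and higher in 1 (median log2 change -0.27). Ltb4r1, the leukotriene B4 receptor, had signals of 628, 432 and 300.0 in the 72 h arrays, against 3934, 3619 and 4291 in the 18 h arrays, and fell by 3.14. Cxcr4, the receptor for the bone marrow chemokine CXCL12, fell by 1.30, a call lost in 3 alternatives, among them those without 72 h replicate 3 (-1.03) or 18 h replicate 2 (-0.80). C5ar1, the receptor for complement C5a, fell by 1.02, lost in 6, among them those without 72 h replicate 1 (-0.96) or 18 h replicate 2 (-0.86). S1pr1, the sphingosine 1-phosphate receptor that guides cells out of tissue, had 1322, 1137 and 989 at 72 h, against 360.2, 285 and 255 at 18 h, and was the one receptor higher. The count lower was 7 without 72 h replicate 2 and 3 without 18 h replicate 2, and the count higher was 2 without 18 h replicate 1.

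Adhesion genes moved in both directions, 7 higher and 4 lower of 23 (median log2 change 0.44). Selp, P-selectin, had signals of 8216, 8094 and 10923 in the 72 h arrays, against 665, 641 and 324 in the 18 h arrays. Itga6 (integrin alpha 6), Itgb3 (integrin beta 3) and Icam2, a ligand of the beta 2 integrins, were higher by 3.96, 3.36 and 3.22. Itgb5, integrin beta 5, had 287, 252 and 236 at 72 h, against 3645, 3822 and 2752 at 18 h, the reverse of Itgb3, although both pair with the same alpha V chain. Itgax and Itgal, which encode CD11c and the alpha chain of LFA-1, fell by 1.94 and 1.61, and Emb, embigin, fell by 1.57. Cdh1, E-cadherin, and Gja1, the gap junction protein connexin 43, were among the 15 genes with the largest decreases, at -3.45 and -3.39. The log2 change of Itgb3 ran from 2.23 to 4.49 over the alternatives, and without 72 h replicate 2 that of Itgax was -2.56.

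Genes for the uptake of apoptotic cells were higher in 9 of 23 and lower in 3, with a median log2 change of 0.61. After Timd4, the bridging proteins Mfge8 and Pros1, which link phosphatidylserine to integrins and to the TAM receptor kinases, were higher by 2.52 and 2.38. Mfge8 had signals of 1653, 1519 and 1871 in the 72 h arrays, against 282, 266 and 289.7 in the 18 h arrays. Anxa5, annexin A5, which itself binds phosphatidylserine, had 3849.9, 4531 and 3426 at 72 h, against 11358, 12158 and 10438 at 18 h, and Stab1, stabilin-1, a phosphatidylserine receptor, fell by 1.24. Proteins that bind phosphatidylserine thus stood on both sides.

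Complement genes were higher in 7 of 15 and lower in 2 (median log2 change 0.88). Cfb, factor B of the alternative pathway, had signals of 6253, 8857 and 12035 in the 72 h arrays, against 958, 811 and 1262 in the 18 h arrays, Cd55, which breaks up the convertases, was higher by 2.81, and C1ra, a protease of the first component, by 2.22. Scavenger receptors were higher in 6 of 15 and lower in 2 (median log2 change 0.58). Marco, which binds unopsonised particles, had 13508, 19928 and 19356 at 72 h, against 836, 869 and 1263 at 18 h, and Cd5l, a secreted scavenger protein of tissue macrophages, Colec12, a collectin, and Cd36 were higher by 2.61, 2.50 and 1.69. Mrc1, the mannose receptor, had 3775, 3686 and 2320.4 at 72 h, against 14769, 20609 and 18589.8 at 18 h, and no 72 h array came near the lowest 18 h array. Of the complement genes, 1 was lower without 72 h replicate 1 or without 18 h replicate 2.

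Pattern recognition genes were higher in 5 of 22 and lower in 5 (median log2 change 0.11). Both shares were above those over all genes, 9.03% higher and 3.46% lower, and more so for the lower genes. Cd209b, the lectin SIGN-R1, was higher by 3.13, with signals of 223, 258 and 583 in the 72 h arrays, against 31.6, 22.4 and 18.2 in the 18 h arrays. Nod1, Clec4d (the lectin MCL) and Tlr3, the receptor for double-stranded RNA, were higher by 1.61, 1.40 and 1.36. Clec4n, the lectin dectin-2 that binds fungal mannans, had 502, 587 and 474 at 72 h, against 2967, 2621 and 1634 at 18 h, and Tlr1 and Tlr5 fell by 2.08 and 1.76. Tlr2 and Clec7a (dectin-1), receptors for zymosan, had log2 differences of 0.14 and -0.69 and were not called.

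**Figure D5:**
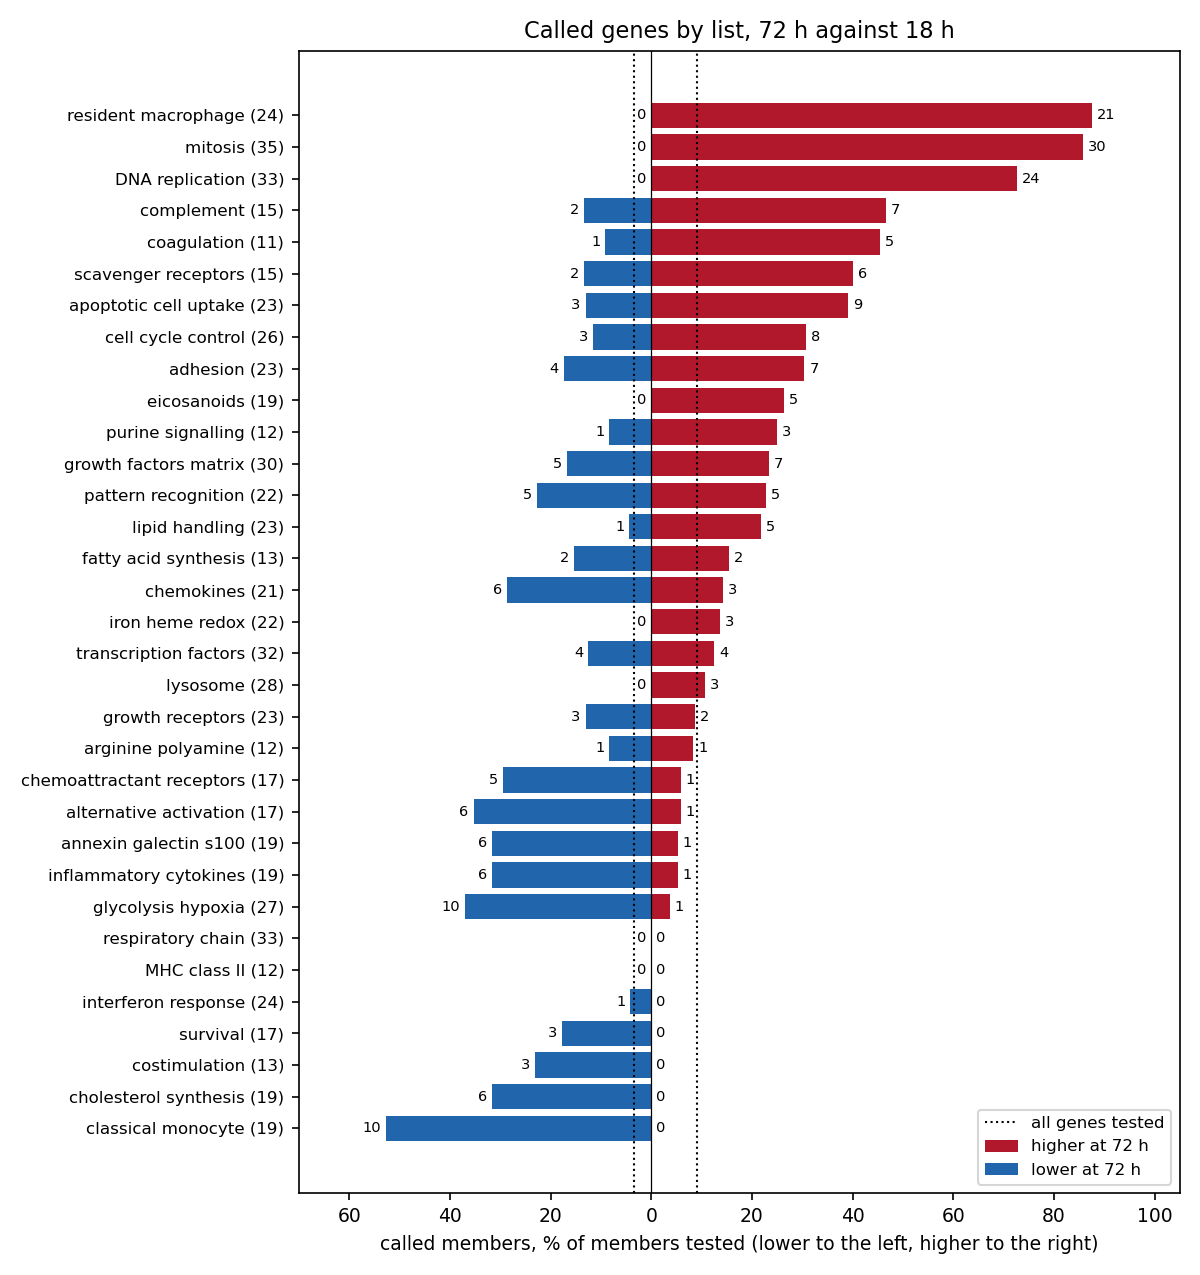
Share of the tested members of each of 33 process lists called higher (red, to the right) or lower (blue, to the left) at 72 h, in percent, with the number of called members at the end of each bar and the number tested in brackets. Dotted lines mark the shares over all genes tested, 9.03% higher and 3.46% lower, and the resident macrophage, mitosis and DNA replication lists reach farthest to the right.

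Genes tied to alternative activation, the state that interleukin-4 induces, were lower in 6 of 17 and higher in 1, with a median log2 change of -0.82. Chil3 and Mrc1 belong to this list as well. Rnase2a, an eosinophil-type ribonuclease, had signals of 41.6, 30.4 and 3.60 in the 72 h arrays, against 29.6, 271 and 285 in the 18 h arrays, so that the groups overlapped through 18 h replicate 1, and its call was lost in 7 of 22 alternatives, among them those without 72 h replicate 3 (-1.62), 18 h replicate 2 (-1.67) or 18 h replicate 3 (-1.64). Pparg, a nuclear receptor for fatty acids, had 55.8, 59.2 and 11.7 at 72 h, against 144, 194 and 102 at 18 h, and its call was lost in 4, among them those without 72 h replicate 3 (-1.12) or 18 h replicate 2 (-1.39). Igf1, insulin-like growth factor 1, had 2141, 1960.3 and 2958 at 72 h, against 181, 588 and 315 at 18 h, and was the one member higher, by 2.78 (limma adjusted p = 0.000239). Arg1 and Retnla, the arginase and the resistin-like protein often used to mark this state, had log2 differences of -0.59 and -0.31. Without 18 h replicate 1 the log2 change of Rnase2a was -3.01, against -2.11 with it.

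Metabolic genes differed by pathway. Cholesterol synthesis genes were lower in 6 of 19 and the other 13 were not called, with a median log2 change of -0.59. Sqle, squalene epoxidase, had signals of 165, 220.0 and 145 in the 72 h arrays, against 2039, 1254 and 1652 in the 18 h arrays, and Cyp51, Idi1 and Hmgcs1, enzymes of the same route, fell by 2.26, 2.08 and 1.54. Fatty acid synthesis genes stood on both sides, 2 higher and 2 lower of 13 (median log2 change 0.29). Scd2, a stearoyl-CoA desaturase, had 1311, 1067 and 668 at 72 h, against 7373, 5504 and 5798 at 18 h, and Elovl6, an elongase, fell by 1.56, whereas Acaca, acetyl-CoA carboxylase, and Me1, malic enzyme, were higher by 2.05 and 1.29.

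Lipid handling genes were higher in 5 of 23 and lower in 1 (median log2 change 0.32). Besides Fabp4, Fabp5, another fatty acid carrier, Pltp, the phospholipid transfer protein, and Mylip, which marks the LDL receptor for degradation, were higher by 1.74, 1.83 and 1.83. Fabp5 had signals of 27175, 25766 and 27908 in the 72 h arrays, against 7344, 8549 and 8262 in the 18 h arrays. The member that was lower was Pparg. Its call was lost without 72 h replicate 3 (-1.12) or 18 h replicate 2 (-1.39), which left 0 genes lower.

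Glycolysis and hypoxia genes were lower in 10 of 27 and higher in 1, with a median log2 change of -0.49. Vegfa, the vascular growth factor induced by hypoxia, had signals of 30.7, 61.0 and 59.0 in the 72 h arrays, against 181, 295 and 199 in the 18 h arrays. Ndrg1 and Pfkfb4, both hypoxia-inducible, and Slc2a1, the glucose transporter GLUT1, fell by 1.86, 1.85 and 1.53. Egln3, a prolyl hydroxylase that marks hypoxia-inducible factors for degradation, was higher by 1.48. In the respiratory chain list limma called 0 of 33 genes, with 1 higher and 6 lower at an unadjusted p below 0.05 and log2 differences of -0.79 to 0.35. Ndufa1 and Cox4i1, subunits of complexes I and IV, had log2 differences of 0.29 and 0.16. The glycolysis and hypoxia list had 2 genes higher without 72 h replicate 1.

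Lysosomal genes were higher in 3 of 28, near the share over all genes (median log2 change 0.15). Glb1, lysosomal beta-galactosidase, had signals of 7587, 8355 and 10422 in the 72 h arrays, against 1037, 971 and 990.1 in the 18 h arrays, and Gaa and Ctso, an alpha-glucosidase and a cathepsin, were higher by 1.08 and 1.04, calls lost in 4 and 3 of 22 alternatives, the common array median among them, and without 72 h replicate 3 (0.98) for Gaa and 18 h replicate 3 (0.98) for Ctso. Ctsf, cathepsin F, stood outside this list among the 15 largest increases, with 461, 573 and 869 at 72 h, against 3.90, 6.42 and 22.1 at 18 h. Iron and redox genes were higher in 3 of 22, against 9.03% of all genes (median log2 change 0.27). Cp, the copper ferroxidase ceruloplasmin, had 1665, 2806 and 3022 at 72 h, against 51.9, 96.6 and 142 at 18 h. Blvrb and Gclm, a biliverdin reductase and a subunit of the glutathione-synthesising ligase, were higher by 1.72 and 1.38.

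Enzymes of lipid mediators were higher in 5 of 19 (median log2 change 0.24). Ptgis, prostacyclin synthase, had signals of 19503, 18837 and 23269.8 in the 72 h arrays, against 1753, 1000.0 and 1007 in the 18 h arrays. Alox15, the 12/15-lipoxygenase that makes precursors of pro-resolving mediators, had 25010.5, 28186 and 28968 at 72 h, against 2324, 3095 and 2075 at 18 h, and Ephx1, an epoxide hydrolase, and Ptges, a prostaglandin E synthase, were higher by 2.80 and 2.08. Ptgs2, the inducible cyclooxygenase, had a log2 difference of -0.94 and was not called. Coagulation genes were higher in 5 of 11 and lower in 1 (median log2 change 0.91). F5, factor V, had 18771, 15857 and 20935 at 72 h, against 751, 959 and 782 at 18 h, F3, tissue factor, and Serpinb2, an inhibitor of plasminogen activators, were higher by 1.49 and 1.66, and F13a1, the clot-crosslinking subunit that monocytes carry, fell by 1.75. Of the coagulation genes, 2 were lower without 18 h replicate 3.

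Genes of purine signalling were higher in 3 of 12 and lower in 1 (median log2 change 0.45). Nt5e, the ectoenzyme CD73 that forms adenosine from AMP, had signals of 1372, 1949 and 1902 in the 72 h arrays, against 69.9, 50.9 and 51.6 in the 18 h arrays. Entpd1, the ectoenzyme CD39 that acts before it, was higher by 1.04, a call lost in 6 of 22 alternatives, among them those without 72 h replicate 3 (0.98) or 18 h replicate 2 (0.94). P2ry14, the receptor for UDP-glucose, was higher by 2.39, whereas P2ry6, the receptor for UDP, had 889, 788 and 539 at 72 h, against 5517, 4964 and 4997 at 18 h, and fell by 2.81. In the arginine and polyamine list Slc7a2, an arginine transporter, was higher by 1.91 and Azin1, the antizyme inhibitor, fell by 1.12, out of 12 tested, and the call of Azin1 was lost without 72 h replicate 3 (-0.94). In the arginine and polyamine list 2 genes were lower without 72 h replicate 1 or without 18 h replicate 1.

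Growth factor and matrix genes were higher in 7 of 30 and lower in 5 (median log2 change 0.062). Thbs1, thrombospondin 1, which activates latent transforming growth factor beta and bridges dying cells to phagocytes, had signals of 7683, 5875 and 6338 in the 72 h arrays, against 1819, 2531 and 701 in the 18 h arrays, and Timp2, an inhibitor of metalloproteinases, was higher by 2.36. Mmp19 and Mmp8, metalloproteinases, fell by 1.91 and 1.69. Wnt2, a Wnt ligand, was among the 15 largest increases, with 3313, 4243 and 6243 at 72 h, against 131, 199 and 140.3 at 18 h.

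Receptors for growth factors and cytokines were higher in 2 of 23 and lower in 3, against 9.03% and 3.46% of all genes (median log2 change -0.23). The share higher was thus near that over all genes. Met, the hepatocyte growth factor receptor, had signals of 4.72, 3.93 and 2.33 in the 72 h arrays, against 316, 231 and 297 in the 18 h arrays, with the 72 h values near the floor of the array. Il13ra1 and Il21r fell by 1.29 and 1.26, Csf3r, the G-CSF receptor, was higher by 1.24 and Tgfbr2 by 1.01, a call lost in 6 of 22 alternatives, among them those without 72 h replicate 3 (0.94) or 18 h replicate 3 (0.83). Csf1r, the receptor on which macrophages depend, had 27936 ± 1332 at 72 h, against 28226 ± 4055 at 18 h (SD, n = 3 each) and a log2 difference of -0.0065.

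Transcription factors were higher in 4 of 32 and lower in 4 (median log2 change -0.057). Both shares were above those over all genes, 9.03% and 3.46%, and more so for the lower genes. After Gata6, Rarb, a retinoic acid receptor, Id2 and Id1, inhibitors of basic helix-loop-helix factors, were higher by 1.64, 1.39 and 1.06, and the call of Id1 was lost in 6 alternatives, among them those without 72 h replicate 2 (0.79) or 18 h replicate 3 (0.96). Egr2, an early growth response factor, had signals of 782, 706 and 839 in the 72 h arrays, against 1252, 4742 and 5151 in the 18 h arrays. Nr4a2 and Nr4a1, nuclear receptors of the immediate early response, and Maf fell by 1.74, 1.58 and 1.26. Nr4a1 is also in the list of genes that dissociation and handling induce, of which limma called 2 of 18 lower, the other being Hsph1, a heat shock protein, at -1.54. Among the other 16, Dnajb1 had the lowest difference, -0.86, and the summed signal of the 18 genes was 173492, 163613 and 152055 at 72 h, against 179007, 199313 and 246090.0 at 18 h. The part of handling in these decreases was not tested. Without 18 h replicate 1 the log2 change of Egr2 was -2.65.

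Genes of annexins, galectins and S100 proteins were lower in 6 of 19 and higher in 1 (median log2 change -0.16). Lgals1, galectin-1, had signals of 4550.4, 5369.5 and 4208 in the 72 h arrays, against 29156, 22565 and 33493 in the 18 h arrays, and S100a6, a calcium-binding protein, fell by 1.89, whereas S100a1 was higher by 1.81. Among survival genes, Pmaip1, Bcl2l11 and Bbc3, which encode the pro-apoptotic BH3-only proteins Noxa, Bim and Puma, were lower and the other 14 of 17 were not called (median log2 change -0.20). Pmaip1 had 1445, 1339 and 1095 at 72 h, against 3017, 5325 and 3749.8 at 18 h, Bcl2l11 had 2800.1, 2828 and 3754 at 72 h, against 6966, 6020.1 and 10144 at 18 h, and the call of Bbc3 at -1.04 was lost in 5 of 22 alternatives, among them that without 18 h replicate 2 (-0.84). Among costimulation genes 3 of 13 were lower (median log2 change -0.27), namely Tnfsf9, the 4-1BB ligand, at -2.93, Havcr2, which encodes Tim3, at -2.01, and Cd83 at -1.03, a call lost in 10 alternatives, among them those without 72 h replicate 1 (-0.65), 72 h replicate 3 (-1.01) or 18 h replicate 2 (-0.61).

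Antigen presentation and interferon lists held few calls, where 9.03% of all genes were higher and 3.46% lower. The share lower in the interferon list was near that over all genes. Limma called 0 of 12 genes of MHC class II presentation, with 1 lower at an unadjusted p below 0.05 and log2 differences of -0.62 to 0.67. H2-Aa, a class II alpha chain, had 28354 ± 2969 at 72 h, against 23532 ± 5901 at 18 h, and Ctss, the cathepsin that trims the invariant chain, had 30375 ± 1607 at 72 h, against 31112 ± 3595 at 18 h (SD, n = 3 each). Of 24 interferon response genes 1 was lower (median log2 change -0.32), Mx1, an antiviral GTPase, at -1.04, a call lost in 5 of 22 alternatives, among them those without 72 h replicate 2 (-0.87) or 18 h replicate 3 (-0.97). Of 14 ribosomal protein genes limma called 0, with 0 at an unadjusted p below 0.05 and log2 differences of -0.17 to 0.38. Without 72 h replicate 2, 1 MHC class II gene was lower, and without 72 h replicate 1, 1 was higher. The interferon response list had 2 genes lower without 72 h replicate 3 and 1 higher without 18 h replicate 3.

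Several of the largest changes lay outside the lists. Sult1a1, a sulfotransferase of phenols, had the largest increase, with signals of 2331, 2439.5 and 3947 in the 72 h arrays, against 23.7, 53.6 and 2.75 in the 18 h arrays. Its lowest 18 h values lay near the floor of the array, so that its log2 change of 6.29 ran from 5.10 to 7.36 over the alternatives. Lbp, the lipopolysaccharide-binding protein, had 5752, 7333 and 6597 at 72 h, against 205, 179 and 241 at 18 h, and Rad51b, a protein of recombinational repair, was higher by 5.15. Shank3, a scaffold protein known from synapses, and Tox2, a protein of the high mobility group, were higher by 4.84 and 4.71. On the other side stood Dmkn, dermokine, with 35.4, 56.7 and 8.01 at 72 h, against 928, 556 and 860.3 at 18 h, and Galnt6, which starts O-linked glycosylation, at -3.55. Bex6, AA414768 and Treml2 completed the 15 largest decreases, at -3.97, -3.47 and -3.39. Of these, Shank3 ran from 3.23 to 6.63, Rad51b from 3.49 to 6.03 and Bex6 from -4.97 to -2.84 over the alternatives.

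Lists of further cell types were short, so that 1 call in them lies near or above the shares over all genes, 9.03% higher and 3.46% lower. No signal in the table was 0, the lowest being 0.0638. Among 12 neutrophil genes tested, Csf3r was higher and Mmp8 lower, Ngp had 98.4 ± 36.6 at 72 h, against 221 ± 196 at 18 h (SD, n = 3 each), S100a8 had 660.2 ± 596 at 72 h, against 459 ± 149 at 18 h, and the sum over 13 genes was 4910.1, 6744 and 6279 at 72 h, against 3538, 4516 and 3137 at 18 h. Among 8 dendritic cell genes tested, Fscn1, which bundles actin, had 1041, 1509 and 1964 at 72 h, against 98.2, 133 and 78.8 at 18 h, and Batf3 fell by 1.54, and the sum over 11 genes was 1795, 3595 and 3181 at 72 h, against 1488, 2053 and 2192 at 18 h. Most tested members of these 2 lists were not higher at 72 h. The neutrophil list had a median log2 change of -0.12, with 4 of 12 genes above 0. The dendritic cell list had one of -0.13, with 3 of 8 genes above 0. In the mast cell list Hdc, histidine decarboxylase, was the one gene called, with 2655, 2814 and 3331 at 72 h, against 145, 148 and 219 at 18 h, higher in every 72 h array, while Cpa3 and Cma1 were high in 72 h replicate 2 alone. The eosinophil sum of 25040.1, 28405 and 29064 at 72 h, against 2435, 3251 and 2168 at 18 h was mostly Alox15, which is also in the resident list, and Prg2, the eosinophil major basic protein, had 20.5 ± 10.3 at 72 h, against 27.2 ± 5.11 at 18 h (SD, n = 3 each). The parts of these cell types in the results were not tested. The mast cell list had 1 gene lower without 72 h replicate 2 and 2 higher without 72 h replicate 3, and the dendritic cell list had 2 genes higher without 72 h replicate 1 or without 18 h replicate 2.

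B cell transcripts depended on 1 array. With all arrays, Ighm, the immunoglobulin mu chain, was the one B cell gene of 11 called, at -2.23, with signals of 198, 3706 and 273 in the 72 h arrays, against 2661, 2900.5 and 2979.5 in the 18 h arrays. The groups thus overlapped through 72 h replicate 2. Without 72 h replicate 2, 6 of the 11 were called lower and the log2 change of Ighm was -3.53. The call of Ighm was lost in 5 of 22 alternatives, among them those without 72 h replicate 1 (-1.46) or 72 h replicate 3 (-1.68). Without 72 h replicate 2, 3 of 8 dendritic cell genes and 2 of 5 T and NK cell genes were called lower, against 1 of each with it. Gzma, granzyme A of T and NK cells, fell by 1.52, a call lost in 7 of 22 alternatives, among them those without 72 h replicate 1 (-1.14), 72 h replicate 3 (-1.13), 18 h replicate 2 (-1.42) or 18 h replicate 3 (-1.48). Mesothelial, fibroblast and erythroid genes were low throughout, with sums of 358, 659 and 679 at 72 h, against 395, 526 and 599 at 18 h, over 12 mesothelial and fibroblast genes, and 211, 342 and 312 at 72 h, against 154, 322 and 221 at 18 h, over 5 erythroid genes. Col1a2, a collagen chain, had 106, 98.5 and 138 at 72 h, against 67.7, 117 and 86.4 at 18 h, so that the groups overlapped, and Krt8, a keratin of the mesothelium, 69.9 ± 34.7 at 72 h, against 81.5 ± 26.5 at 18 h (SD, n = 3 each). The log2 change of Gzma was -2.29 without 72 h replicate 2, and without 18 h replicate 2, 1 erythroid gene was higher.

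The genes that differed were then looked up in comparisons that share no array with 72 h or 18 h. Naive resident macrophages against bone marrow monocytes gave 1566 genes higher (12.9%) and 1241 lower (10.2%), and Ly-6B- against Ly-6B+ macrophages of 168 h gave 293 higher (2.41%) and 187 lower (1.54%). Of the 1099 genes higher at 72 h, 678 were also higher in resident macrophages (61.7% of the 1099 and 43.3% of the 1566) and 203 were lower there (18.5% of the 1099 and 16.4% of the 1241). The 240 that were also higher in the Ly-6B- macrophages of 168 h were 21.8% of the 1099 and 81.9% of the 293, and 11 were lower there (1% of the 1099 and 5.88% of the 187). Of the 421 genes lower at 72 h, 241 were lower in resident macrophages (57.2% of the 421 and 19.4% of the 1241) and 25 were higher (5.94% of the 421 and 1.6% of the 1566). In the Ly-6B- macrophages of 168 h, 96 of the 421 were lower (22.8% of the 421 and 51.3% of the 187) and 2 were higher (0.475% of the 421 and 0.683% of the 293). Across 12169 genes, which share probe sets and scaling, the log2 changes correlated with those of resident against bone marrow at r = 0.454 (Spearman's rho 0.416) and with those of Ly-6B- against Ly-6B+ at r = 0.427 (rho 0.326).

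Single genes show both kinds of relation. Timd4 had a log2 change of 3.40 in Ly-6B- against Ly-6B+ macrophages of 168 h, and Vcan one of -0.19. Mki67 and Cdk1, higher at 72 h than at 18 h, were lower in naive resident macrophages than in bone marrow monocytes, with log2 changes of -3.48 and -3.20. Il1b had a log2 change of -2.21 in that comparison and Gsn one of -6.05.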

How the data were processed

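RNA of sorted peritoneal cells, with bone marrow monocytes beside them, was hybridised to Affymetrix mouse arrays, 1 array per sample, 21 in all. The deposited values are MAS5 signals, a background-corrected linear intensity that the authors computed in Affymetrix Expression Console 1.2, per the submitters' processing notes. The 2% trimmed mean is equal in every array of the deposited table. The number of arrays limits the precision. Probe sets were named through GEO's platform annotation, in which 34958 of 45101 had 1 symbol, and the 932 with several and 9211 with none were left out. A gene was read from its probe set with the highest mean. Log2(signal + 15) was fitted with limma 3.58.1 in R 4.3.3 (lmFit, eBayes with trend) over all 21 arrays, with 14 residual degrees of freedom, for genes above the table's median of 80.6 in at least 3 arrays. Tests were 2-sided with Benjamini-Hochberg adjustment over the 12169 genes. Fold changes are on the log2(signal + 15) scale, which understates the change of dim genes. The fit was tested on simulated data.

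The members and lists (937 entries in 44 lists) were chosen with earlier results of these data known. Named were the 15 largest changes in each direction among called genes without overlap between the 2 groups, up to 4 called members per list and direction (where none is called, the 2 brightest), up to 3 of the brightest members of each cell type list, the 5 markers, and Adgre1, Itgam, Ccr2 and Mki67. Promoters shown were those of the most changed members of the mitosis and replication lists that hold the motif. Chosen after their values were seen were Arg1, Cd93, Clec4e, Clec7a, Csf1r, Dnajb1, Emilin2, Espl1, F10, Fn1, Foxm1, Ifitm6, Il10, Il6, Incenp, Ms4a8a, Mybl2, Ptgs2, Pttg1, Retnla, Saa3 and Tlr2, and those of the closing section that the rule does not give. The alternatives changed the pseudocount, scaling, filter, choice of probe sets, variance model, arrays in the fit, a block on replicate number, a covariate for the Gapdh 3'/5' ratio, the minimum fold, and left out each of the 6 arrays in turn.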

Additional observations from a re-analysis of the deposited data

Results flagged for a closer look

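Probe sets without a single gene symbol lay outside the comparison of genes. Of 4705 such probe sets that passed the same filter on low signal, 242 were higher and 140 lower at 72 h than at 18 h in limma at the same adjusted p and fold. The adjustment was made over these probe sets alone, each counted separately. Both shares were below those of the genes tested, 9.03% higher and 3.46% lower. They are counted here because they are measured on the same arrays and some of them were called, and no gene is named from them.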

How the results depend on the processing

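The alternatives that moved the counts by over 1.5 times concerned the minimum fold. With none, 2124 genes were higher and 1578 lower at 72 h than at 18 h, and 1343 of the higher and 874 of the lower ones stood on the same side in naive resident macrophages against bone marrow monocytes, and 430 and 260 in the Ly-6B- against the Ly-6B+ macrophages of 168 h. When limma's treat tested against a log2 change of 1, these 6 counts were 430, 111, 282, 70, 59 and 17. Leaving out each array in turn gave 1042 to 1185 genes higher and 391 to 473 lower, 617 to 700 and 206 to 261 shared with the resident cells, and 229 to 245 and 91 to 114 shared with the cells of 168 h. The other alternatives gave 758 to 1257 higher and 340 to 553 lower. Under quantile normalization 63.2% of the called genes were higher at 72 h and under a common array median 64.4%, against 72.3% as reported, with the median of all genes at -0.087 and -0.090, against 0.027. Of 159 named genes followed over 22 alternatives, 0 reversed, 63 lost their call in at least 1, and Adgre1 gained one in 4 and Itgam in 2. The fold change, not its log2, moved by over 1.5 times in at least 1 alternative for 35 of them. It did so for 24 with the pseudocount and for 12 without 1 array. The widest range of the log2 change was that of Met, -5.94 to -2.41. Apart from the minimum fold, the resident list had 21 genes higher in each alternative, the mitosis list 29 to 32, the replication list 20 to 27, and the classical monocyte list 10 to 12 lower. With no minimum fold these were 22, 32, 27 and 13, and under treat 20, 25, 7 and 5. Replicate numbers are shared between the groups by number alone. The deviations of same-numbered arrays correlated across genes at 0.114, 0.0886 and 0.195, and all 6 arrays correlated best with their own number, a hint from the data and not from the design. With the replicate number as a block, 1107 genes were higher and 428 lower over all arrays, and 1103 and 421 over the 6 arrays alone. The causes of these shifts were not tested, beyond the fewer or more genes that a threshold by its construction leaves. Signals near the floor of the array limit the size of the largest folds.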

Other observations

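Among the genes called between 72 h and 18 h, some had a level at 1 of the 2 times that lay outside all 18 arrays of the other groups, and the ratios below are of group means after adding 15. The 72 h arrays were above every other array in 11 genes and below every other array in 1. Ctla2a, which encodes a cathepsin inhibitor, averaged 1976 at 72 h, 5.34 times the next group, that of 18 h. Saa1, the acute phase protein serum amyloid A1, averaged 606 at 72 h, 2.95 times the next group, again that of 18 h. Both were higher at 18 h than in the remaining groups, so that their highest levels stood at the intermediate times. Prdx4 and Pdia5, which encode enzymes of the endoplasmic reticulum that handle disulfides, stood at 1.56 and 1.27 times the next group, and Clec1b, the podoplanin receptor CLEC-2, at 1.52 times. The gene below all others at 72 h was Ppp1r15a, a phosphatase subunit of the stress response, at 0.666 of the next lowest group.

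Among the same called genes, the 18 h arrays were above every other array in 77 and below every other array in 53. Groups other than those of 72 h and 18 h were not counted in this way. Mrc1 at 18 h was 3.83 times the next group, and Scd2 3.92 times. Mif, a macrophage cytokine, averaged 7438 at 18 h, 2.70 times the next group, that of 72 h. Trem2, a lipid-binding receptor of tissue macrophages, stood at 2.12 times, Mgl2, the lectin CD301b, at 2.46 times and Aif1, which encodes the macrophage protein Iba1, at 2.13 times the next group. These genes were at their highest at 18 h, and lower in the monocytes of 4 h as in the macrophages of 72 h and 168 h. At the other end, Lbp at 18 h was 0.124 of the next lowest group, Mgst1, a microsomal glutathione transferase, 0.250 and Hcar2, the receptor for niacin and hydroxybutyrate, 0.413. Gadd45a, a gene of growth arrest and DNA damage, averaged 152 at 18 h, and 0.328 of the next lowest group, that of 72 h.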
